A study of Mus musculus with 51 samples.

Results

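Potassium channel genes were described across 3 hippocampal subfields and 3 genotypes, taking as members every gene whose single symbol on the array begins with Kcn. There were 60 such genes among 11807 genes with a single symbol, and each was read through the probe set with the highest mean over all 51 arrays. The arrays came from 17 female mice at 4.5 months of age, with 1 array per mouse for each of the laser-captured CA1 and CA3 pyramidal layers and the granular layer of the dentate gyrus (DG). The 6 rTg4510 mice carried a human tau transgene with a proline-to-leucine mutation, driven by a second transgene, tTA, under the CaMKIIα promoter, which is active mainly in excitatory forebrain neurons. The 5 tTA mice carried only the transactivator, so that they differ from rTg4510 mice in the tau transgene alone, and the 6 double negative (DN) mice carried neither. All groups came from 1 cross of a tau line with a tTA line on another inbred background, so that no group was a pure strain. The values are log2 signals on the robust multi-array average (RMA) scale, on which a difference of 1 is a 2-fold change. They are relative brightness of a probe set and do not rank the transcripts of different genes.

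Potassium channels let potassium leave or enter the cell and so set the resting potential, repolarize action potentials and limit repetitive firing. Voltage-gated alpha subunits form the pores that open on depolarization, and Kv beta subunits, Kcne proteins and the calcium-binding KChIPs attach to them. Inward rectifiers, two-pore channels and calcium-activated channels act near rest, in glia, downstream of G proteins or after calcium entry. In the hippocampus, pyramidal cells and dentate granule cells are known to differ in their firing patterns, and in the set of potassium channels that shapes them. The members fell into 18 voltage-gated alpha subunits, 13 inward rectifiers, 8 two-pore channels and 6 genes of the calcium- or sodium-activated family. There were also 5 Kcne genes, 4 KChIPs, 3 Kv beta subunits and 3 beta subunits of the BK channel. Families were assigned by gene symbol and not by gating. The calcium- or sodium-activated family held Kcnma1, Kcnn1, Kcnn2, Kcnn3, Kcnn4 and Kcnu1. Of 34 listed members with a textbook role in hippocampal neurons or glia, 26 were measured, and the others were not analysed here.

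Array medians were 2.91 to 3.12, and 31 members exceeded the mean of these medians (3.02) in at least 1 subfield while 29 did not. The dim members may lie below detection, and their differences may be understated. The 3′ minus 5′ signal of the Gapdh control probe sets, a sign of RNA integrity, had a median of 2.32 in CA1, 2.40 in CA3 and 2.67 in DG arrays. The prion protein gene Prnp separated rTg4510 arrays from the others by genotype label, except in 5 arrays. It was 9.65 to 10.4 in 4 arrays labelled DN (the 3 arrays of mouse 4 and the DG array of mouse 5) and 7.34 in the DG array of rTg4510 mouse 3, against 9.59 to 10.6 in the other 17 rTg4510 arrays and 6.57 to 8.76 in the other 29 tTA and DN arrays. Calls of members that change without these 5 arrays are given with and without them.

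The subfield labels were checked against marker genes. Each of the 6 measured granule cell markers was lower in CA1 and in CA3 than in the DG, and their mean signal reached 4.88 in CA1 and 3.68 in CA3 arrays, against at least 5.86 in DG arrays. The CA3 markers averaged 6.78 to 7.57 in every CA3 array. The CA1 arrays were less uniform. In 8 of the 17, from 3 rTg4510, 2 tTA and 3 DN mice, the CA1 transcription factor gene Pou3f1 was not above the array's median (1.58 to 2.96), against 5.25 to 8.38 in the other 9. In the same 8 arrays Wfs1, another CA1 marker, was 2.48 to 7.11, against 8.46 to 10.5 in the other 9, and the 5 CA3 markers averaged 5.22 to 6.72, against 4.22 to 5.70. The 6 CA1 markers averaged 3.84 to 4.65 in the 8 arrays, 5.73 to 7.23 in the other 9 and 2.96 to 3.83 in CA3 arrays. In DG arrays the same markers averaged 4.12 to 5.45. Wfs1 was 6.2 to 8.2 in CA3 and 5.21 to 8.69 in DG arrays, so its lowest values in the 8 arrays lay below both. Of the 6 CA1 markers, 1 was called higher in CA1 than in the DG and 3 than in CA3, and 0 were called lower. The part of the uneven CA1 markers in the CA1 results was not tested. Calls of members that change without the 8 arrays are given with their values from the other 9.

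Among the 60 members, 21 differed between subfields in at least 1 comparison and 39 in none (limma with the mouse as a block, Benjamini-Hochberg adjusted p under 0.05 over all 22626 probe sets). CA1 differed from the DG in 13 members, against 10.9% of all probe sets tested, with 6 members higher in CA1 (5.6% of all probe sets were) and 7 lower (5.33% were). CA3 differed from the DG in 17 members, against 13.9% of all probe sets, with 5 higher in CA3 (7.27% were) and 12 lower (6.59% were). CA1 differed from CA3 in 6 members, against 4.68% of all probe sets, with 5 higher in CA1 (2.46% were) and 1 lower (2.22% were). The members called were thus 21.7%, 28.3% and 10% of the 60. Each member was read through its brightest probe set, while the shares of all probe sets include dimmer ones, so these shares are not like for like. At an unadjusted p under 0.05 there were 18, 22 and 15 members, beside 21.9%, 25.9% and 15.9% of all probe sets. The median difference over the members was 0.00 for CA1 minus DG, 0.02 for CA3 minus DG and −0.02 for CA1 minus CA3, beside 0.02, 0.05 and −0.03 over all probe sets. The mean difference of each of the 36 calls had the same sign in rTg4510, tTA and DN mice. The calls were drawn from these same mice, so this describes them and is not separate support. Some of these means were small, as for Kcnj4 in CA3 minus DG in tTA mice (−0.06, with 2 of 5 mice of that sign). These p-values measure how subfield differences varied from mouse to mouse, pooled over the 3 subfields, with the mean level of each mouse removed. In these dissected layers, fewer cells of a type and less RNA per cell cannot be told apart.

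**Figure D1:**
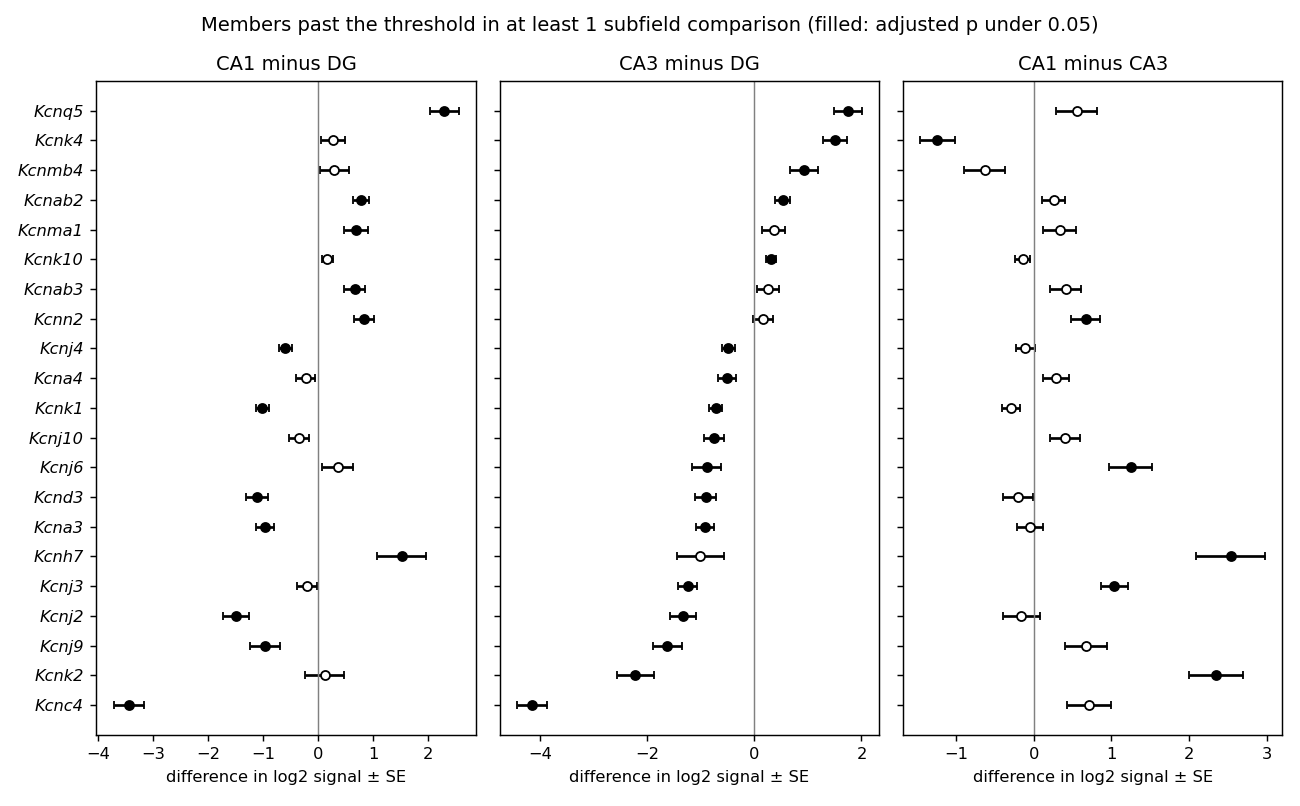
Differences in log2 signal ± SE for the 21 members past the threshold in at least 1 subfield comparison, ordered by CA3 minus DG, with filled points for adjusted p under 0.05 and open points otherwise. Kcnc4 lies farthest to the left against the DG, at −3.44 from CA1 and −4.16 from CA3, and Kcnq5 farthest to the right, at 2.30 and 1.75.

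The strongest contrast was that of Kcnc4, which encodes Kv3.4, a fast-inactivating voltage-gated subunit found in axons and terminals. Its signal was 2.47 to 6.56 in CA1 (median 4.48), 2.52 to 6.18 in CA3 (median 3.82) and 6.98 to 8.74 in DG arrays (median 7.92). No CA1 or CA3 array reached the lowest DG array, and Kcnc4 was the only member whose subfields did not overlap, against 0.177% of all probe sets for CA1 and the DG, 0.486% for CA3 and the DG and 0.00884% for CA1 and CA3. It averaged 4.54 ± 1.20 in CA1, 3.83 ± 0.91 in CA3 and 7.98 ± 0.41 in DG arrays (SD, n = 17 each), which is 10.9-fold lower in CA1 and 17.8-fold lower in CA3 than in the DG (standard error 0.28 on the log2 scale, limma adjusted p = 5.7e-11 and 3.0e-13). CA1 minus DG was −2.63 ± 1.11 in rTg4510 mice, −3.28 ± 0.53 in tTA mice and −4.39 ± 1.42 in DN mice (SD, n = 6, 5 and 6). A second, dim probe set of Kcnc4 (mean 2.20) gave −0.10 and −0.19 and passed in neither comparison (adjusted p = 0.592 and 0.178), so the contrast rests on 1 probe set.

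Kcnc4 was joined on the DG side by 3 further voltage-gated subunits. Kcnd3 encodes Kv4.3, a pore of the A-type current, and had medians of 2.63 in CA1 and 2.94 in CA3 against 3.70 in the DG, with 3.29, 3.80 and 5.52 as the highest arrays. The groups overlapped, but Kcnd3 was lower in 14 of 17 mice in either comparison, by 1.11 in CA1 (limma adjusted p = 9.2e-05) and 0.91 in CA3 (adjusted p = 9.1e-04). Kcna3, for Kv1.3, was above the array median in 0 CA1 arrays, 1 CA3 array and 6 DG arrays, at 1.75 ± 0.20 in CA1, 1.79 ± 0.66 in CA3 and 2.72 ± 0.83 in DG arrays (SD, n = 17 each), and was lower than in the DG by 0.97 and 0.92 (adjusted p = 5.5e-05 and 8.0e-05). Kcna4, for the A-type subunit Kv1.4 of axons, was 0.52 lower in CA3 than in the DG (adjusted p = 0.0384), in 11 of 17 mice. That call was lost without any 1 of 8 mice (adjusted p between 0.0548 and 0.101) and without the 5 arrays named above (0.0640), and with only the 9 CA1 arrays in the fit (0.0565).

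Kcnq5 showed the opposite pattern. It encodes Kv7.5, a subunit of the M-current that muscarinic receptors suppress. Its signal was 4.24 to 6.94 in CA1 (median 5.58), 2.598 to 5.97 in CA3 (median 5.07) and 2.07 to 5.21 in DG arrays (median 3.27). Kcnq5 was 4.93-fold higher in CA1 than in the DG, in 17 of 17 mice, and 3.36-fold higher in CA3, in 16 of 17 (differences of 2.30 and 1.75, standard error 0.26, limma adjusted p = 4.3e-08 and 4.8e-06). CA1 and CA3 differed in Kcnq5 by 0.55 (standard error 0.26, adjusted p = 0.282).

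Kcnh7, which encodes the ERG-type channel Kv11.3, was set apart in CA1. It had a median of 4.73 in CA1 (1.42 to 6.27), 1.43 in CA3 (1.08 to 3.04) and 2.22 in DG arrays (1.47 to 4.46), so that its signal exceeded the array median in 11 of 17 CA1 arrays, 1 CA3 array and 6 DG arrays. It was higher in CA1 than in CA3, by 2.53 (standard error 0.44, limma adjusted p = 2.1e-04), in 5 of 6 rTg4510, 5 of 5 tTA and 5 of 6 DN mice. CA1 exceeded the DG by 1.52 (adjusted p = 0.0198), in only 11 of 17 mice. These were 4 of 6 rTg4510, 4 of 5 tTA and 3 of 6 DN mice. With most CA3 and DG arrays below the array median, the Kcnh7 differences may be understated and are given without a fold. The CA1 arrays fell apart with the CA1 markers. Kcnh7 was 4.17 to 6.27 in the 9 CA1 arrays with Pou3f1 above the median, and 1.42 to 5.23 with a median of 1.73 in the other 8. Over the 9 arrays the difference was 4.22 against CA3 and 3.21 against the DG (adjusted p = 1.3e-09 and 1.8e-07). CA3 minus DG, whose difference uses no CA1 array, was −1.01 in both fits. It passed only in the fit with the 9 CA1 arrays (adjusted p = 0.00509), where its standard error was 0.25 against 0.44. The residual spread is pooled over the 3 subfields, so leaving out CA1 arrays changed it. With all arrays the call of CA1 against the DG was lost without DN mouse 3 (1.33, adjusted p = 0.0560) or tTA mouse 5 (1.32, adjusted p = 0.0546). CA3 against the DG did not pass with all arrays (adjusted p = 0.138).

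The other voltage-gated subunits did not pass. Kcna1, for the axonal delayed rectifier Kv1.1, had 6.84 ± 0.69 in CA1, 7.33 ± 0.54 in CA3 and 7.34 ± 0.46 in DG arrays (SD, n = 17 each). CA1 minus DG was −0.50 (standard error 0.18, limma adjusted p = 0.0637), and CA1 minus CA3 was −0.50 (adjusted p = 0.111). Over the 9 CA1 arrays with Pou3f1 above the median both were −0.84 and passed (adjusted p = 0.0191 and 0.0213). Its partner Kcna2, for Kv1.2, differed by 0.57 and 0.63 from the DG in CA1 and CA3 (adjusted p = 0.157 and 0.0880). Kcnc1, for the fast-spiking subunit Kv3.1, and Kcnh1, for the EAG channel Kv10.1, differed by at most 0.30 in any of the 3 comparisons with all arrays. Over the 9 CA1 arrays CA1 minus DG was −0.66 for Kcnh1 and did not pass (adjusted p = 0.416).

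**Figure D2:**
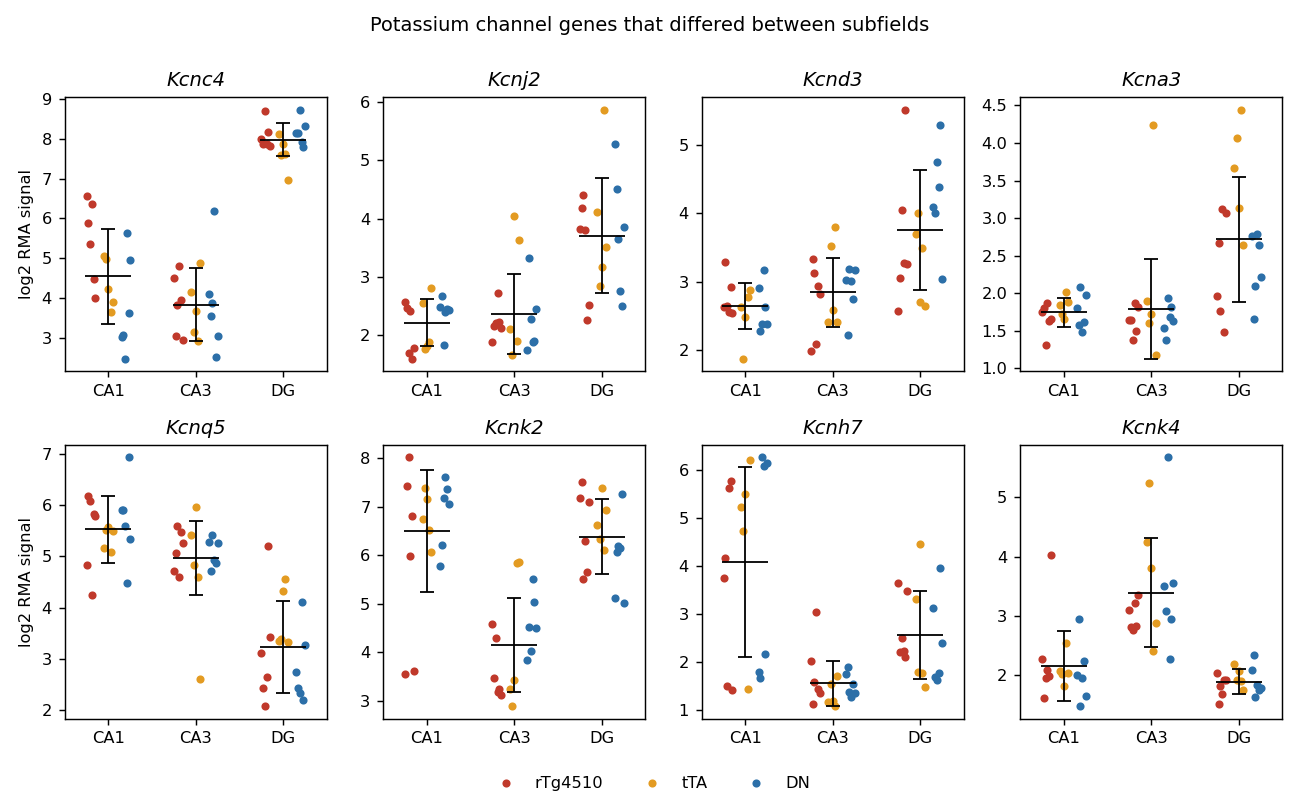
Log2 RMA signal of 8 members in CA1, CA3 and DG arrays, 1 point per array coloured by genotype (rTg4510, tTA, DN), with the mean ± SD of the 17 arrays of a subfield in black. Kcnc4 is at least 6.98 in every DG array, Kcnq5 is low in the DG, Kcnk2 is low in CA3, and Kcnh7 spans 1.42 to 6.27 in CA1.

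To show sequence beside the patterns, the 250 bases upstream of the annotated start are printed for chosen examples. Kcnc4 and Kcnj2 were high in the DG, from the voltage-gated and inward rectifier groups. Kcnh7 was among the called members highest in CA1, and Kcnk4 among those highest in CA3. The sequences are from RefSeq, build GRCm38.p6, on the gene's strand and 5′ to 3′, with capitals for the motifs found. The GC box, with the letters GGGCGG, was searched on either strand. The CCAAT box was searched on either strand by the letters of its name. The TATA motif was searched as TATAAA on the gene's strand only. Kcnc4 lies at chr3:107458899-107459148 (minus strand), Kcnj2 at chr11:111065914-111066163 (plus strand), Kcnh7 at chr2:63184288-63184537 (minus strand) and Kcnk4 at chr19:6934516-6934765 (minus strand).
Kcnc4: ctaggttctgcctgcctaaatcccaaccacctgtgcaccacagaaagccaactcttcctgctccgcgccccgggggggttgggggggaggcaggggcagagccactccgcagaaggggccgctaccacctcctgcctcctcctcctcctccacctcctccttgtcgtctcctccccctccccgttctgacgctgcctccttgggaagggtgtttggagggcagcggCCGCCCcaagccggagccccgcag
Kcnj2: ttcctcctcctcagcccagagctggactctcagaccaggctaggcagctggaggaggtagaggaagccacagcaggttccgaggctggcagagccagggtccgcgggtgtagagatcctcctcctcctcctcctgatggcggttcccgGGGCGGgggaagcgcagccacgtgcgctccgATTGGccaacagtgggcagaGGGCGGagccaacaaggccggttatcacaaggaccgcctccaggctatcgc
Kcnh7: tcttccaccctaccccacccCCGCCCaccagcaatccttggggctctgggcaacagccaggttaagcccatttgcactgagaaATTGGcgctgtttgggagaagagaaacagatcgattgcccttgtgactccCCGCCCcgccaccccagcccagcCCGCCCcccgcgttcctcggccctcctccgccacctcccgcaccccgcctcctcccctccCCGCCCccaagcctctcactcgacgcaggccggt
Kcnk4: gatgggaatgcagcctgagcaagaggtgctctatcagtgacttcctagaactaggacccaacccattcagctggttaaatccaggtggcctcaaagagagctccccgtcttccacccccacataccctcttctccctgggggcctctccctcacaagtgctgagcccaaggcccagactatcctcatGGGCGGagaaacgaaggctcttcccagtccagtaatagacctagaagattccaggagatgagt
The windows hold 1 GC box in Kcnc4, 2 GC boxes and 1 CCAAT box in Kcnj2, 4 GC boxes and 1 CCAAT box in Kcnh7 and 1 GC box in Kcnk4, and none holds the TATA motif. The CpG dinucleotides numbered 12, 14, 16 and 3 in the same order, with a median of 6 over all windows and 8 over the member windows. Of all 32851 upstream windows of this length, 32.7% hold a GC box, 33.8% a CCAAT box and 7.59% the TATA motif. Of 67 windows of the 49 members that matched by symbol, 44.8%, 28.4% and 1.49% do. A match of letters is a description and not a binding site.

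Among inward rectifiers, 6 of 13 were lower in CA3 than in the DG, 3 were lower in CA1 than in the DG, and none was higher in either, beside 6.59% and 5.33% of all probe sets lower. Kcnj2 and Kcnj4 encode the strong rectifiers Kir2.1 and Kir2.3, which hold the resting potential near the potassium equilibrium. Kcnj2 was 1.60 to 2.80 in CA1 (median 2.42), 1.67 to 4.04 in CA3 (median 2.16) and 2.25 to 5.87 in DG arrays (median 3.80). All 17 mice had a lower Kcnj2 signal in CA1 than in the DG, and 15 of 17 a lower one in CA3, with differences of −1.49 and −1.33 (standard error 0.24, limma adjusted p = 1.9e-05 and 7.3e-05). Kcnj2 was above the array median in 0 CA1 arrays, 3 CA3 arrays and 12 DG arrays. Kcnj4 was dim, with 2.38 ± 0.35 in CA1, 2.48 ± 0.46 in CA3 and 2.97 ± 0.47 in DG arrays (SD, n = 17 each), and was lower than in the DG by 0.59 and 0.49 (adjusted p = 5.9e-04 and 0.00395).

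The 3 neuronal subunits of Kir3 (GIRK) channels, through which G protein-coupled receptors hyperpolarize neurons, had their lowest mean in CA3. Kcnj3, for Kir3.1, was 3.96 to 6.23 in CA1 (median 5.82), 3.42 to 5.60 in CA3 (median 4.51) and 4.52 to 7.03 in DG arrays (median 5.81). In all 17 mice its CA3 signal was below both others, by 1.04 in CA1 minus CA3 and by 1.24 in the comparison with the DG (standard error 0.18, limma adjusted p = 1.5e-04 and 2.3e-06). Kcnj6, for Kir3.2, averaged 6.06 ± 0.95 in CA1, 4.81 ± 1.27 in CA3 and 5.70 ± 1.09 in DG arrays (SD, n = 17 each). CA1 exceeded CA3 by 1.25 (adjusted p = 0.00367) and CA3 lay 0.89 below the DG (adjusted p = 0.0253), a call that was lost without DN mouse 2 (−0.80, adjusted p = 0.0615) or rTg4510 mouse 2 (−0.77, adjusted p = 0.0689) and without the mouse as a block (0.0977). The second probe set of Kcnj6 gave 0.86 and −0.63, neither past the threshold (adjusted p = 0.167 and 0.237).

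Kcnj9, for Kir3.3, had 6.23 ± 0.62 in CA1, 5.56 ± 1.10 in CA3 and 7.19 ± 0.43 in DG arrays (SD, n = 17 each), and was 1.63 lower in CA3 than in the DG, in 16 of 17 mice (standard error 0.27, limma adjusted p = 3.0e-05). It was also 0.96 lower in CA1 than in the DG (adjusted p = 0.0151). Without the 5 arrays whose Prnp went against the label that difference was −0.80 (adjusted p = 0.0600), and over the 9 CA1 arrays with Pou3f1 it was −0.74 (adjusted p = 0.330). CA1 minus CA3 was 0.67 for Kcnj9 and did not pass (adjusted p = 0.188). Its second probe set, with a mean of 1.99, differed by −0.05 and −0.04 from the DG. Kcnj5, the cardiac subunit Kir3.4, was dim at 1.70 to 1.79 in the 3 subfield means and did not pass.

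**Figure D3:**
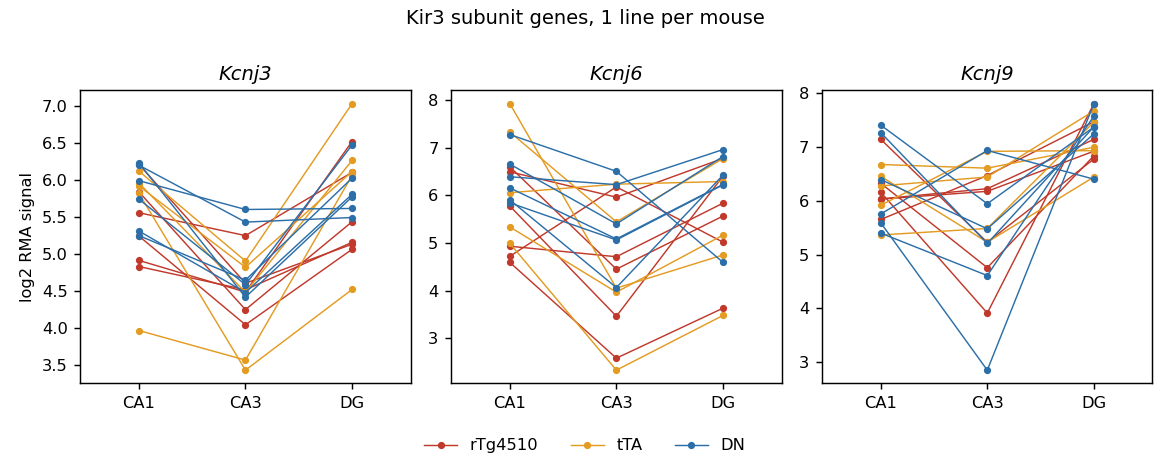
Log2 RMA signal of Kcnj3, Kcnj6 and Kcnj9 in the CA1, CA3 and DG arrays of each mouse, 1 line per mouse coloured by genotype (rTg4510, tTA, DN). For Kcnj3 all 17 lines dip at CA3, while for Kcnj6 15 of 17 lie lower in CA3 than in CA1 and for Kcnj9 16 of 17 lie lower in CA3 than in the DG.

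Kcnj10, for Kir4.1, the channel by which astrocytes buffer potassium, was 0.75 lower in CA3 than in the DG (4.06 ± 0.80 against 4.81 ± 0.64, SD, n = 17 each, limma adjusted p = 0.00487), in 14 of 17 mice. The CA1 mean was 4.47 ± 0.67, and the difference of −0.34 from the DG did not pass (adjusted p = 0.297). Of 8 measured astrocyte markers, 3 (Gja1, Gfap and Sox9) were lower in CA3 than in the DG, 5 were lower in CA1 and 1 (S100b) was higher in CA1, and their mean signal ranged from 5.61 to 7.78 in CA1, 5.51 to 7.24 in CA3 and 5.43 to 7.72 in DG arrays. Their part in the Kcnj10 difference was not tested. Kcnj8 and Kcnj11, the Kir6 pores of ATP-sensitive channels, had means of at most 2.63 and did not pass. Abcc8 encodes SUR1, a regulatory subunit of ATP-sensitive channels, and came from a list of 18 partner genes of which 8 were measured. It was lower than in the DG by 0.66 in CA1 and 0.53 in CA3 (standard error 0.16, limma adjusted p = 0.00361 and 0.0184).

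Two-pore channels, which carry the background potassium leak, moved in different directions. Kcnk2, for the mechanosensitive and lipid-sensitive TREK-1, was 3.55 to 8.02 in CA1 (median 6.80), 2.89 to 5.87 in CA3 (median 4.03) and 5.03 to 7.51 in DG arrays (median 6.30). CA3 was thus the low subfield. Kcnk2 was 5.07-fold higher in CA1 than in CA3, in 16 of 17 mice, and 4.67-fold lower in CA3 than in the DG, in 17 of 17 (limma adjusted p = 1.9e-05 and 1.2e-05), while CA1 minus DG was 0.12 (standard error 0.35, adjusted p = 0.907). The low CA1 arrays were those of rTg4510 mice 1 (3.55) and 6 (3.62), both among the 8 with low Pou3f1, and over the other 9 arrays Kcnk2 was 5.98 to 7.62 and CA1 minus CA3 was 2.87 (adjusted p = 4.3e-06).

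Kcnk4, for the related channel TRAAK, ran the other way. It averaged 2.16 ± 0.59 in CA1, 3.39 ± 0.92 in CA3 and 1.89 ± 0.21 in DG arrays (SD, n = 17 each), and exceeded the array median in 1 CA1 array, 10 CA3 arrays and 0 DG arrays. CA3 was higher than the DG in 17 of 17 mice, by 1.505 (standard error 0.22, limma adjusted p = 4.0e-06), and CA1 minus CA3 was −1.24 (adjusted p = 2.8e-04). Kcnk1, for TWIK-1, was bright in every array, at 7.39 ± 0.47 in CA1, 7.68 ± 0.22 in CA3 and 8.41 ± 0.29 in DG arrays (SD, n = 17 each), and lower than in the DG by 1.02 in CA1, in 16 of 17 mice, and by 0.73 in CA3, in 17 of 17 (adjusted p = 1.0e-07 and 2.8e-05). Kcnk10, for TREK-2, was dim, at 2.10 ± 0.32 in CA3 and 1.79 ± 0.18 in the DG, and its difference of 0.31 (adjusted p = 0.0227) was lost without DN mouse 1 (0.24, adjusted p = 0.0612), without tTA mouse 2 (0.26, adjusted p = 0.0564) and without the 5 arrays (0.28, adjusted p = 0.0729).

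Calcium-activated channels end bursts and shape the afterhyperpolarization. Kcnn2, for the small-conductance channel SK2, was 5.23 to 6.90 in CA1 (median 5.95), 4.28 to 6.54 in CA3 (median 5.30) and 4.44 to 5.94 in DG arrays (median 4.93). It was 0.83 higher in CA1 than in the DG (standard error 0.19, limma adjusted p = 0.00190), in 15 of 17 mice, and 0.67 higher in CA1 than in CA3 (adjusted p = 0.0275), in 14 of 17. The second call was lost without any 1 of 7 mice (adjusted p between 0.0509 and 0.0684) and over the 9 CA1 arrays with Pou3f1 (0.73, adjusted p = 0.0517). Kcnn1, for SK1, differed by at most 0.20 and did not pass. Kcnn4, for the intermediate-conductance channel, was 0.33 lower in CA1 than in the DG and did not pass (adjusted p = 0.219), while over the 9 CA1 arrays it was 0.67 lower and passed (adjusted p = 0.0291).

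Kcnma1 encodes the pore of the BK channel, and had 7.76 ± 0.35 in CA1, 7.43 ± 0.45 in CA3 and 7.07 ± 0.91 in DG arrays (SD, n = 17 each). CA1 was 0.69 higher than the DG (limma adjusted p = 0.0287). The lowest DG array was at 4.41, and the call was lost without tTA mouse 4 (0.50, adjusted p = 0.0536), rTg4510 mouse 3 (0.67, adjusted p = 0.0531) or rTg4510 mouse 6 (0.60, adjusted p = 0.0740), and over the 9 CA1 arrays with Pou3f1 (0.54, adjusted p = 0.300). Its second probe set was also higher in CA1 than in the DG, by 0.41 (adjusted p = 0.0181). The neuronal BK beta subunit Kcnmb4 was highest in CA3, at 6.94 ± 0.45 against 6.01 ± 0.64 in the DG (SD, n = 17 each), a difference of 0.93 in 15 of 17 mice (adjusted p = 0.0121), with 6.31 ± 1.01 in CA1.

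Of the subunits that attach to voltage-gated channels, 2 of 3 Kv beta genes were higher in CA1 and 1 in CA3 than in the DG, beside 5.6% and 7.27% of all probe sets, and the KChIP and Kcne genes passed in no comparison. Kcnab2 averaged 7.90 ± 0.50 in CA1, 7.65 ± 0.54 in CA3 and 7.12 ± 0.39 in DG arrays (SD, n = 17 each), higher than in the DG by 0.78 in 16 of 17 mice and by 0.53 in 14 of 17 (limma adjusted p = 1.6e-04 and 0.00935). Kcnab3 was 0.67 higher in CA1 than in the DG (adjusted p = 0.0223), and lost the call without tTA mouse 4 (0.61, adjusted p = 0.0514), without the 5 arrays (0.61, adjusted p = 0.0855) and over the 9 CA1 arrays with Pou3f1 (0.60, adjusted p = 0.271). Kcnab1 ranged from 2.23 to 7.54 in CA1, with 2.23 to 5.69 in the 8 CA1 arrays with low Pou3f1 and 5.53 to 7.54 in the other 9. Its differences did not pass and changed sign between the full set and the 9 arrays, with CA1 minus DG at −0.30 with all arrays and 0.83 over the 9 (adjusted p = 0.729 and 0.126) and CA1 minus CA3 at −0.53 and 0.59 (adjusted p = 0.522 and 0.308).

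Kcnip3, for the KChIP also known as calsenilin and DREAM, was 0.61 below the DG in CA3 at an adjusted p of 0.05005, just over the threshold, and 0.57 below it in CA1 (limma adjusted p = 0.0849). Over the 9 CA1 arrays with Pou3f1, CA1 minus DG was −0.87 and passed (adjusted p = 0.0192). CA3 minus DG also passed in that fit (adjusted p = 0.0208), but its difference uses no CA1 array and stayed at −0.61. Only its standard error fell, from 0.21 to 0.18, since the residual spread is pooled over the 3 subfields. Kcnip1 was 0.97 higher in CA1 than in CA3 in 13 of 17 mice and did not pass (standard error 0.36, adjusted p = 0.142), and Kcnip2 and Kcnip4 differed by at most 0.35. The Kv4 partner Dpp6, from the list of partner genes, was 0.89 lower in CA3 than in the DG (standard error 0.20, adjusted p = 0.00122). The 5 Kcne genes had subfield means of 1.46 to 1.96, below every array's median, although Kcne3 reached 5.35 in 1 CA3 array.

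Genotype was examined next, since the study asked how mutant tau alters hippocampal gene expression. No member passed in any of 12 comparisons of genotypes (rTg4510 against tTA, tTA against DN and rTg4510 against DN, within the subfields and for their mean), nor in 3 tests of whether a subfield difference differed between rTg4510 and tTA mice. In the limma fits, the share of all probe sets past the threshold was 0% in 13 of these 15 and 0.00442% (1 probe set) in rTg4510 against DN in CA1 and in rTg4510 against tTA in CA3. Without the 5 arrays whose Prnp went against the label, 13 probe sets passed in tTA against DN and 16 in rTg4510 against DN in the DG, 1 to 7 in the other 10 comparisons of genotypes and 0 in the 3 tests, and none was a member. At an unadjusted p under 0.05 there were 2 to 6 members per comparison. For rTg4510 against tTA there were 2 in CA1, 5 in CA3, 3 in the DG and 5 in the mean, beside 3.97%, 5.91%, 5.71% and 5.35% of all probe sets. For tTA against DN there were 4, 2, 5 and 5, beside 4.59%, 6.13%, 5.21% and 6.17%. For rTg4510 against DN there were 6, 3, 2 and 4, beside 5.39%, 3.94%, 4.73% and 5.41%. The tests of differing subfield differences had 3, 5 and 3, beside 4.82%, 6.42% and 4.15%. Fisher's LSD, run on either the log2 or the linear signals, called 0 members as well. With 5 or 6 mice per genotype, standard errors of the rTg4510 minus tTA differences named below were between 0.12 and 0.64 within subfields. Over the 9 CA1 arrays with Pou3f1 above the median, limma called 0 members in the 3 genotype comparisons of CA1, and 2, 5 and 6 had an unadjusted p under 0.05.

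In CA1 the smallest p of rTg4510 against tTA was that of Kcnj10, the astrocyte rectifier. Its signal was 4.43 to 6.05 (median 4.59) in rTg4510 mice and 4.54, 4.13, 4.39, 3.004 and 4.30 in tTA mice, which overlap. The means were 4.97 ± 0.70 (SD, n = 6) and 4.07 ± 0.62 (SD, n = 5), a difference of 0.90 (standard error 0.33, limma adjusted p = 0.999). All 8 measured astrocyte markers had a positive difference in the same comparison, with a median of 0.40, none past the threshold, and their mean signal was 6.14 to 7.78 in rTg4510 and 5.79 to 6.40 in tTA arrays. Other non-neuronal markers had larger medians in that comparison, with 1.19 for oligodendrocytes (8 of 8 positive), 0.92 for microglia (8 of 8) and 0.55 for vessels (7 of 7), none past the threshold. The part of these cells in the Kcnj10 difference was not tested. Kcne3, second in CA1, was dim in every array (highest 2.08) and differed by −0.29 (adjusted p = 0.999), or by −0.46 over the 9 CA1 arrays.

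Turning to CA3, Kcnmb2, an inactivating BK beta subunit, was 2.73 to 3.89 (median 3.09) in rTg4510 mice, and 2.43, 2.60, 2.28, 2.29 and 3.14 in tTA mice. Its pore Kcnma1 was 6.29 to 7.37 (median 7.19) in rTg4510 mice, against 7.47, 7.42, 8.37, 7.29 and 7.61 in tTA mice. The 2 BK genes differed in opposite directions, by 0.69 and −0.59 (standard errors 0.24 and 0.22), with overlapping arrays and a limma adjusted p of 0.819 for both.

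In the DG the smallest p was that of Kcna3, the gene for Kv1.3, which microglia and lymphocytes also express. It was 1.49 to 3.12 (median 2.32) in rTg4510 mice, 3.66, 4.06, 3.14, 4.44 and 2.64 in tTA mice, and 1.65 to 2.79 (median 2.43) in DN mice. The tTA mice were thus the high group, with overlap, and the means were 2.35 ± 0.70 in rTg4510 (SD, n = 6), 3.59 ± 0.72 in tTA (SD, n = 5) and 2.36 ± 0.45 in DN mice (SD, n = 6). The difference from tTA mice was −1.24 for rTg4510 (standard error 0.36, limma adjusted p = 0.673), and tTA minus DN, which shares the tTA arrays, was 1.23 (adjusted p = 0.871). Of 8 microglial markers, 2 had a positive rTg4510 minus tTA difference in the DG (median −0.46) and 7 a positive tTA minus DN difference (median 0.48), none past the threshold. Their mean signal was 3.07 to 4.13 in rTg4510, 3.63 to 4.96 in tTA and 3.18 to 4.24 in DN arrays, and their part in the Kcna3 difference was not tested. Kcnj14, for Kir2.4, was 2.03 to 4.88 (median 3.02) in rTg4510 mice and 1.97, 3.30, 2.004, 1.62 and 1.79 in tTA mice, and its difference was 1.04 (adjusted p = 0.804). The DG groups of rTg4510 and DN mice include arrays whose Prnp went against the label. The Kcna3 and Kcnj14 values here are with those arrays.

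Over the mean of a mouse's 3 subfields, Kcnc1 was 0.70 higher in rTg4510 (3.98 ± 0.36, SD, n = 6) than in tTA mice (3.28 ± 0.55, SD, n = 5), and Kcna3 was 0.63 lower (limma adjusted p = 0.911 for both). The Kcnc1 differences were 0.61 in CA1, 0.43 in CA3 and 1.05 in DG arrays, and the CA1 difference was 0.28 over the 9 arrays with Pou3f1 above the median. The rTg4510 DG arrays, and so the means, include the 1 array whose Prnp went against the label. Outside the rule for named genes, and chosen after its values were seen, Kcna4 was the 1 member whose arrays did not overlap between rTg4510 and DN mice in CA1 (0.265% of all probe sets did not). It was 3.47 to 3.95 (median 3.77) in rTg4510 mice and 4.24 to 4.83 (median 4.50) in DN mice, and differed by −0.77 (standard error 0.20, adjusted p = 0.685), with tTA mice at 3.43, 3.53, 4.63, 4.42 and 4.17. The DN values include the CA1 array of DN mouse 4, whose Prnp went against the label. Over the 9 CA1 arrays with Pou3f1 above the median the Kcna4 difference was −0.85 (limma adjusted p = 0.376).

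**Figure D4:**
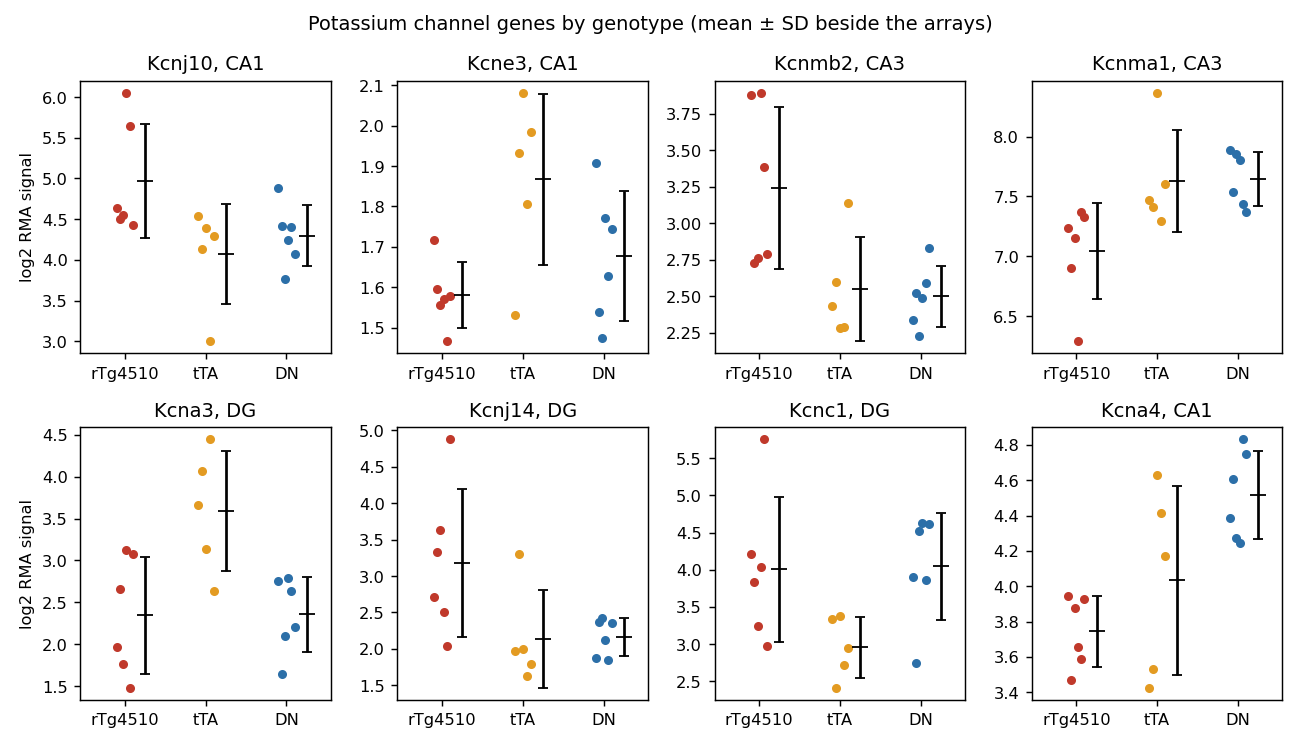
Log2 RMA signal of 8 members in 1 subfield each, with 1 point per array and the mean ± SD beside it, for rTg4510 (n = 6), tTA (n = 5) and DN mice (n = 6). The arrays of rTg4510 and tTA mice overlap in every panel, and those of rTg4510 and DN mice are apart only for Kcna4 in CA1, at up to 3.95 against at least 4.24.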

How the data were processed

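RNA of laser-captured CA1, CA3 and DG layers was amplified and hybridized to Affymetrix HT-MG-430A arrays. The authors deposited 1 table of RMA signals on the log2 scale. The methods name anti-log RMA, but the deposited values are log2 and were used as such; the RMA version and the arrays normalized together are not given in the sources used here. Of 22716 probe sets, 90 controls were dropped and the other 22626 were tested with no filter. limma 3.58.1 (R 4.3.3) was fitted to the 51 arrays with a fixed block per mouse for subfields, and genotypes were compared within each subfield or on a mouse's mean or difference of subfields, and p-values were adjusted by Benjamini-Hochberg across the 22626 probe sets. The labels give 3 arrays to each mouse, which pairs them; deviations of arrays of 1 mouse correlated at a mean r of 0.0492. Of the members, 40 had 1 probe set and 20 had several.

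The members, the gene lists and the rule for named genes were chosen with earlier results of these data known. Named were, per subfield comparison, the 6 highest and 6 lowest differences among members that passed, the 6 brightest members, the 2 smallest p of rTg4510 against tTA per subfield and in the mean, textbook members and partner genes that passed. Alternatives were Fisher's LSD, centring, quantile normalization, a filter at the 40th percentile of mean signal, array weights, an intensity trend, 1 probe set per gene, other block choices, fits of only the genotypes compared, the second brightest probe set, and leaving out 5 or 7 arrays or each mouse. Leaving out the CA1 arrays with Pou3f1 at or below the array's median was added after seeing the data. The fits were tested on simulated data. The number of mice limits the precision. Figures were drawn with matplotlib 3.10.9.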

Additional observations from a re-analysis of the deposited data

Results flagged for a closer look

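In 6 groups of 5 or 6 mice, 1 array lay far from the others of its group relative to the group's range. Chance alone gives such a gap in about 1 in 20 groups, and 63 groups of the members named for genotype were examined. In CA3, Kcna3 was 4.24 in tTA mouse 4 with a group median of 1.73, and Kcnj14 was 5.02 in the same array with a median of 2.02. Also in CA3, Kcne3 was 3.95 in tTA mouse 5 (median 1.81) and 5.35 in DN mouse 1 (median 1.66), while the other arrays of these groups were near the lowest signals. In CA1, Kcnj10 was 3.004 in tTA mouse 4 (median 4.30), the lowest tTA array of the comparison that gave the smallest p there. In the DG, Kcnj14 was 3.30 in tTA mouse 2 (median 1.97). No member had a subfield difference that passed the test for a difference between rTg4510 and tTA mice.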

How the results depend on the processing

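The counts of members called stayed within 1.5 times of those reported under all alternatives. Without 1 mouse they were 12 to 14 for CA1 against the DG, 15 to 19 for CA3 against the DG and 5 to 7 for CA1 against CA3, and under the other settings 11 to 16, 15 to 18 and 4 to 8. Genotype counts were 0 under every alternative. Without the mouse as a block, 13, 16 and 6 members were called, and the 1 call lost was that of Kcnj6 in CA3 against the DG. The 44 named differences were the 36 calls and the rTg4510 minus tTA differences named for their small p. None of the 44 changed sign, and 13 of the 36 that were called lost the call under at least 1 alternative, 7 of them without 1 mouse. The differences of Kcnab1 were not called, are outside the 44 and changed sign over the 9 CA1 arrays. With Fisher's LSD on linear signals Kcnj6 (adjusted p = 0.0615) and Kcnk4 (0.0616) lost the call between CA1 and CA3. The same setting lost Kcnab3 between CA1 and the DG (0.327), and Kcnj6 (0.225) and Kcna4 (0.0579) between CA3 and the DG. Kcna4 also lost that call in limma with centring (0.0722), quantile normalization (0.0873) and an intensity trend (0.0567). With the filter, Kcna3 and Kcnk10 were not tested. Over the 9 CA1 arrays with Pou3f1 above the median, 13 members were called between CA1 and the DG, 10 of them also called with all arrays. In that fit 18 were called between CA3 and the DG (16 shared) and 6 between CA1 and CA3 (5 shared). The CA3 minus DG differences use no CA1 array and did not change. Those calls changed through the pooled residual spread and the adjustment. The second brightest probe set did not pass for 7 calls, those of Kcnc4, Kcnj9 and Kcnj6 given above and that of Kcnab3 in CA1 against the DG (0.33, adjusted p = 0.432). A difference in a member at background in every subfield may go unseen on this array. Of the 29 members whose subfield means did not exceed the mean of the array medians, 3 were called.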
